A study of Mus with 2 samples.

Results

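Transcripts of the Ms4a gene family were followed across 2 tumor sections, with Ms4a4c set against its relatives Ms4a4b, Ms4a4a, Ms4a6b, Ms4a6c, Ms4a6d and Ms4a7. These 7 genes are members of a set of 19 genes with an Ms4a symbol, among 32285 genes in the deposited matrices. They were chosen by name, for their counts in each section, their level by distance from the tissue outline and their correlation across spots. Those same values are therefore given below as a description.

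The tissue came from balb/c mice, labelled 6-8 weeks old, that bore CT26 tumors under the skin, and CT26 is an established line of mouse colon carcinoma cells. The control mouse received PBS, and the other mouse received 10 µg of recombinant mouse IL7 (rIL7) into the peritoneum on days 11 and 13, with tissue labelled day 15 in both. One 10 µm frozen section per group was profiled by Visium, in which the RNA of each barcoded spot of a slide is counted by unique molecular identifiers (UMIs). A spot can hold several cells of different types.

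MS4A proteins cross the membrane 4 times and form a family that includes the B cell antigen CD20 (Ms4a1) and the beta chain of the high-affinity IgE receptor (Ms4a2). In mice, Ms4a4b is best known from T cells, where it can associate with the costimulatory receptor GITR. Ms4a4a and Ms4a7 are known from macrophages, Ms4a6c and Ms4a6d from monocytes and macrophages, and Ms4a6b from both lymphoid and myeloid cells. Ms4a4c is known from monocytes and other myeloid cells and is inducible by interferon.

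In the RefSeq annotation of GRCm38, the 7 members lie side by side on chromosome 19, between 11321039 and 11604804, a span of 283766 bp that also holds Ms4a4d. Ms4a7 (11321039 to 11336146) is followed by Ms4a4a (11375488 to 11392915), Ms4a4c (11404717 to 11427246) and Ms4a4b (11443558 to 11463549). Ms4a6c (11469353 to 11487182), Ms4a6b (11518559 to 11530403), Ms4a4d (11536794 to 11558466) and Ms4a6d (11586606 to 11604804) come next. Ms4a4c and Ms4a4b, which differed most between the sections, are thus neighbors. Whether the counting could split reads between near-identical members was not checked, so small differences between members are uncertain.

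After filtering, 2219 control and 1950 rIL7 spots held 22951678 and 25729233 UMIs, with a median of 9623 and 12921.5 UMIs per spot. Levels are UMIs of a gene per 1000000 UMIs of the section (CPM). The range in parentheses after a value is its 95% interval, which covers counting error only and leaves out differences between animals and sections. With 1 section per group there was no replicate and no test, so no difference below can be assigned to the treatment. Each section was also split into 4 quadrants, which show the spread within a section and are not replicates. The tumor genes Baiap2l1 (861 and 664 CPM in control and rIL7) and Rpl39l (432 and 379 CPM) were abundant in both sections, whereas the basal skin keratin genes Krt14 (250 and 1 UMIs) and Krt5 (196 and 0 UMIs) and the skeletal muscle gene Acta1 (610 and 23 UMIs) were found mostly in the control section. Another keratin gene, Krt10, did not share this difference, with 895 control and 966 rIL7 UMIs.

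Ms4a4c was lower in the rIL7 section and Ms4a4b higher, while the other members with at least 20 UMIs differed by less than 1.5-fold. Ms4a4c gave 1551 UMIs in the control section, 67.6 CPM (64.3 to 71.0), and 779 UMIs in the rIL7 section, 30.3 CPM (28.2 to 32.5). Its 4 control quadrants held 63, 67.4, 99.99 and 52.6 CPM, and its 4 rIL7 quadrants 26.5, 36.9, 26.9 and 30.3 CPM. Every rIL7 quadrant was thus below every control quadrant, as was so for 9.77% of all genes, and the control spread came mostly from 1 quadrant. Ms4a4c was 2.23-fold lower in rIL7 (2.05 to 2.44), a log2 ratio of -1.16. Of 14313 genes with at least 20 UMIs over both sections, 225 (1.57%) had a lower ratio. The value was -1.17 without the spots in which keratinocyte and skeletal muscle genes summed to over 3 UMIs (91 in the control against 9 in the rIL7 section).

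Ms4a4b, best known from T cells, went the other way. It gave 302 UMIs in the control section, 13.2 CPM (11.7 to 14.7), and 1018 UMIs in the rIL7 section, 39.6 CPM (37.2 to 42.1). The control quadrants held 15.1, 11.1, 15.6 and 10.2 CPM and the rIL7 quadrants 25.6, 38.4, 42.2 and 53.1 CPM. They did not overlap, as was so for 9.74% of all genes in the same direction. Ms4a4b was 3.01-fold higher in rIL7 (2.64 to 3.43). The T cell list, 16 genes that include the T cell receptor chains, the CD3 chains, Cd4, Cd8a, Thy1 and Il2rb (an interleukin receptor chain that NK cells also carry), held 220 CPM in the control against 444 CPM in the rIL7 section, with quadrants of 193 to 274 and 346 to 530 CPM. Of its genes, 14 of 16 were at least 2-fold higher in rIL7 (4.05% of all genes were), and none was at 0 in either section. The NK cell list was higher as well, at 84.4 CPM in the control against 199 CPM in the rIL7 section. Of its 7 genes, 6 were at least 2-fold higher in rIL7. The part of T cell or NK cell number in the Ms4a4b difference was not tested. In spots that mix cells, a change in the number of cells of a type cannot be told apart from a change in RNA per cell.

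The members known from macrophages and monocytes, with Ms4a6b, were closer between sections. Ms4a6d gave 5371 control UMIs (234 CPM) and 5769 rIL7 UMIs (224 CPM), a ratio of 0.958 (0.923 to 0.995). Ms4a6b gave 77.5 and 67.4 CPM, a ratio of 0.869 (0.813 to 0.929). Ms4a6c gave 100.7 and 80.3 CPM, a ratio of 0.797 (0.751 to 0.846), close to that of its myeloid relative Ms4a7. Ms4a7 gave 173 and 136 CPM, a ratio of 0.787 (0.752 to 0.824). All of these counting intervals lay below 1, but the quadrants of the sections overlapped for each of the 4 genes. Quadrants of Ms4a7, for example, ran from 149 to 202 CPM for control and from 102 to 172 CPM for rIL7.

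Ms4a4a, the remaining member, was close to the limit of detection, with 5 control and 7 rIL7 UMIs, each in a spot of its own. Its levels of 0.22 CPM (0.07 to 0.51) and 0.27 CPM (0.11 to 0.56) allowed ratios from 0.34 to 4.99, so no difference was detectable at this depth. It was below the minimum of 20 UMIs and is left out of the counts of members that follow, which hold 6 of the 7.

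Across the 6 members the median log2 ratio of rIL7 over control was -0.26, and across all 14313 genes it was -0.002. Of the 6, 1 was at least 2-fold higher, where the share of all genes was 4.05%, and 1 was at least 2-fold lower, where it was 2.09%. Over the 7613 genes that averaged at least 20 CPM, the shares were 0.828% and 0.197%. Quadrants without overlap were found for 1 member in each direction, while 9.74% of all genes had every rIL7 quadrant above and 9.77% every one below the control quadrants. These counts describe genes that were chosen with their ratios known, and nothing is read from them.

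**Figure D1:**
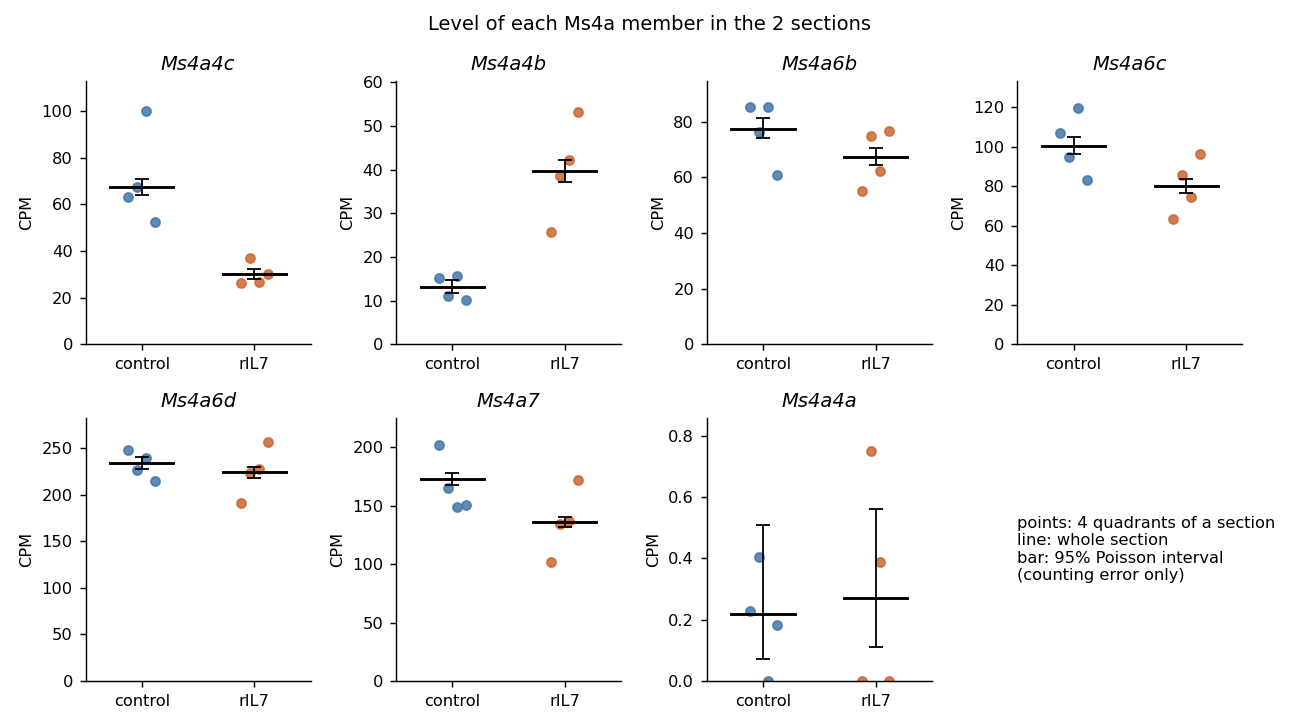
Level of each Ms4a member in the control and the rIL7 section, in CPM on linear axes that start at 0. Points are the 4 quadrants of a section, the line is the whole section and the bar its 95% Poisson interval (counting error only). Quadrants do not overlap for Ms4a4c (lower in rIL7) and Ms4a4b (higher in rIL7), overlap for Ms4a6b, Ms4a6c, Ms4a6d and Ms4a7, and rest on 12 UMIs in all for Ms4a4a.

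Of the other genes with an Ms4a symbol, 4 had at least 20 UMIs over both sections. Ms4a4d, which lies within the span of the members, gave 64 control and 143 rIL7 UMIs, a ratio of 1.99 (1.47 to 2.72). Its quadrants did not overlap (2.2 to 4.5 against 4.8 to 7.7 CPM), as was so for 9.74% of all genes in the same direction. Ms4a14 gave 270 and 271 UMIs, a ratio of 0.895 (0.754 to 1.06). Ms4a8a gave 45 and 78 UMIs, with quadrants that overlapped. The best known genes of the family were nearly absent from these tumors, since Ms4a1 gave 3 and 2 UMIs and Ms4a2 gave 17 and 14 UMIs, a ratio of 0.735 (0.335 to 1.58).

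Genes of proteins that act with or resemble MS4A proteins were read from the same spots. Tnfrsf18, which encodes GITR, the receptor that Ms4a4b can associate with, gave 134 control and 300 rIL7 UMIs, a ratio of 2.00 (1.62 to 2.47). Trem2, a macrophage receptor whose shedding is linked to MS4A4A, was at 56.9 and 56.0 CPM, a ratio of 0.985 (0.913 to 1.06). Tmem176a and Tmem176b, myeloid genes of a related group of tetraspanning proteins, had ratios of 1.03 (0.989 to 1.07) and 0.881 (0.856 to 0.906). Of these 4 genes, Tnfrsf18 thus had the ratio furthest from 1, and its counting interval includes 2. Of all genes, 4.05% were at least 2-fold higher in rIL7, so nothing is read from this 1 gene.

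The lower level of Ms4a4c was also seen in how many spots held it. When each spot was thinned to 5900 UMIs to remove the difference in depth, 30.1% of 2002 control spots and 16.5% of 1869 rIL7 spots held a Ms4a4c UMI (43.4% and 28.6% of kept spots without thinning). For Ms4a4b the thinned shares were 7.64% and 19.0% (12.1% and 34.97% without thinning). Ms4a6d was found in 72.1% and 73.5% and Ms4a7 in 59.9% and 54.8% of thinned spots. A spot rarely held many molecules of either of the 2 genes that differed most: the highest number was 9 in the control against 8 in the rIL7 section for Ms4a4c, and 3 and 7 for Ms4a4b.

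Because the members are read from the same spots, their UMIs can also be set against each other, which removes the depth of a spot. Ms4a4c made up 10.1% (9.67 to 10.6) of the 15284 member UMIs in the control section against 5.24% (4.89 to 5.61) of 14869 in the rIL7 section. The share ran from 8.75% to 14.1% over the control quadrants and from 4.43% to 6.21% over the rIL7 quadrants. Ms4a4b made up 1.98% and 6.85% of member UMIs. Ms4a4c and Ms4a4b thus took different parts of the family's UMIs in the control and the rIL7 section. These are shares of counted molecules, and capture can differ between genes, so they are not read as relative abundances of the mRNAs.

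Against each relative alone, Ms4a4c was lower in the rIL7 section. Per UMI of Ms4a6d there were 0.289 UMIs of Ms4a4c in the control section against 0.135 in the rIL7 section, with quadrants of 0.244 to 0.418 and 0.118 to 0.165. Per UMI of Ms4a7 there were 0.391 and 0.223, per UMI of Ms4a6c 0.671 and 0.377, and per UMI of Ms4a6b 0.872 and 0.450. In all 4 of these the control and rIL7 quadrants did not overlap. The quadrants of Ms4a4c alone did not overlap either, as was so for 9.77% of all genes in the same direction. Nothing further is therefore read from the 4 comparisons. Per UMI of Ms4a4b, which was itself higher in rIL7, there were 5.14 and 0.765.

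Position in the section was described by the number of grid steps from the outer outline of the largest piece of tissue. Ms4a4c was highest near the outline and lowest in the core of both tumors. In the control section its level was 99.96 CPM at step 1, 100.9 at step 2, 85.7 at steps 3 to 4, 66.3 at steps 5 to 8, 54.9 at steps 9 to 12 and 28.1 deeper than that. In the rIL7 section the same zones held 54.0, 71.1, 46.9, 25.2, 20.5 and 14.4 CPM. The outermost spots were 3.56-fold (2.82 to 4.51) above the core in the control against 3.74-fold (2.80 to 5.01) in the rIL7 section. This ratio, which uses step 1 alone, was thus close between sections, but the gradient was not alike by every measure. Steps 1 and 2 together were 1.69-fold (1.51 to 1.89) above all deeper steps for control and 2.60-fold (2.23 to 3.03) for rIL7. The rIL7 level was below the control level in all 6 zones, least at step 2 by 1.42-fold (1.15 to 1.76) and most at steps 9 to 12 by 2.68-fold (2.13 to 3.40). This difference did not grow steadily with depth, as it was 1.85-fold (1.45 to 2.37) at step 1 and 1.95-fold (1.47 to 2.59) in the core.

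Ms4a4b had a different profile. In the control section it was low throughout, at 17.8 CPM at step 1, 16.4 at steps 3 to 4 and 9.12 in the core. In the rIL7 section it reached 95.4 CPM at step 1 and 90.5 at step 2, then 51.1, 34.7, 20.7 and 20.4 CPM further in. The excess in rIL7 was thus 5.34-fold (3.77 to 7.74) at the outline and 2.23-fold (1.54 to 3.32) in the core. The T cell list had a like profile: its summed level was 257 CPM at step 1 and 193 CPM in the core of the control section, and 1024 and 279 CPM in the rIL7 section. The macrophage list (5297 and 3922 CPM for control, 11707 and 5030 CPM for rIL7) and the monocyte list (258 and 150 CPM for control, 417 and 165 CPM for rIL7) were also higher at the outline, by more in the rIL7 section.

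The other 4 members had flatter profiles, and the order of the sections changed with depth. Ms4a6b held 82.6 CPM at step 1 and 79.5 at steps 9 to 12 in the control section, but 102.0 and 56.0 in the rIL7 section. Ms4a6c held 116 and 99.2 CPM in the control section against 117 and 66.9 in the rIL7 section at the same depths. At the outline the ratio of rIL7 over control was thus 1.24 (1.002 to 1.52) for Ms4a6b and 1.01 (0.836 to 1.21) for Ms4a6c, and at steps 9 to 12 it was 0.705 (0.602 to 0.825) and 0.675 (0.585 to 0.778). Both genes were lower still in the core. There Ms4a6b held 54.5 CPM for control and 47.4 for rIL7, a ratio of 0.871 (0.731 to 1.04). Ms4a6c held 76.2 and 56.4 CPM there, a ratio of 0.739 (0.634 to 0.863). Ms4a7 was also alike at step 1 (195 and 197 CPM) and lower in rIL7 from step 2 inward, to 129 and 111 CPM in the core. Ms4a6d varied least, between 189 and 273 CPM in the control and between 215 and 266 CPM in the rIL7 zones.

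**Figure D2:**
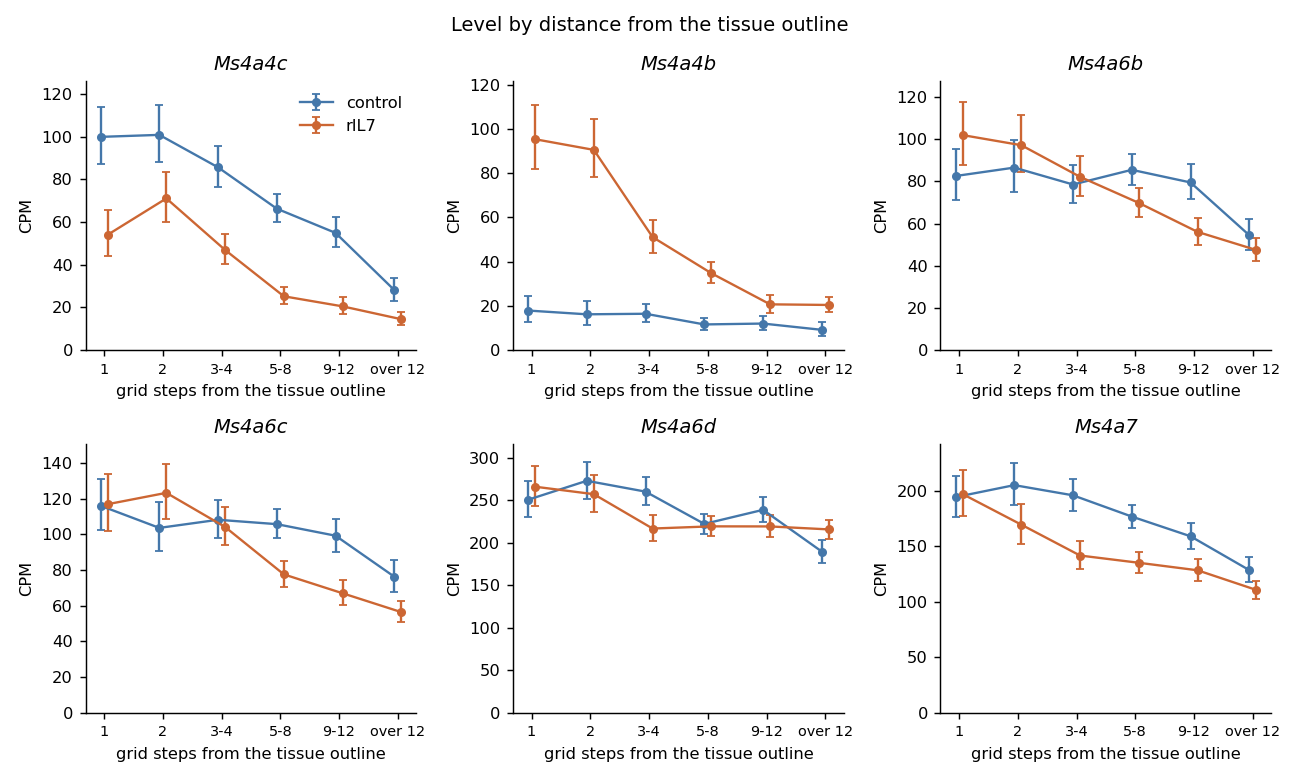
Level (CPM, linear axes from 0) of 6 Ms4a members by distance from the tissue outline in grid steps, for the control (blue) and the rIL7 section (orange), with 95% Poisson intervals (counting error only). The rIL7 line lies below the control line at every distance for Ms4a4c and above it for Ms4a4b, whereas for Ms4a6b, Ms4a6c and Ms4a7 the control line is not above the rIL7 line at step 1 and is above it at steps 5 to 12.

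Grouped into an edge of 2 steps (401 control and 330 rIL7 spots) and an interior (1806 and 1599 spots), the members separated in the same way. Ms4a4c was 1.69-fold (1.51 to 1.89) higher at the edge of the control section and 2.60-fold (2.23 to 3.03) higher at the edge of the rIL7 section. Ms4a4b was 1.40-fold (1.07 to 1.83) and 3.14-fold (2.75 to 3.57) higher at the edge. The ratio for Ms4a6d was 1.15 (1.08 to 1.23) in the control against 1.20 (1.12 to 1.28) in the rIL7 section, and that for Ms4a7 was 1.20 and 1.44. In the rIL7 section 2 of the 6 members were at least 2-fold higher at the edge, where 6.83% of 13324 genes were, and 0 of 6 were at least 2-fold lower (3.41% of genes). In the control section 0 of 6 were past 2-fold in either direction, where 1.03% of 13168 genes were higher and 2.28% lower. On the log2 scale, the median of this edge to interior ratio over the 6 members was 0.24 in control tissue, with -0.06 over all genes, and 0.71 in rIL7 tissue, with -0.05 over all genes. The zones were not of like tissue in the 2 sections. Keratinocyte genes summed to 118 CPM at the control edge and 40.7 in its interior, against 29.6 and 39.1 CPM for rIL7. Of the 967 rIL7 UMIs of these genes, 966 were of Krt10, so the rIL7 sums rest on Krt10. Skeletal muscle genes summed to 9.39 and 44.4 CPM for control, against 3.57 and 2.45 CPM for rIL7. Spots with these genes were kept in the edge ratios.

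Read the other way, the section difference of Ms4a4c was larger in the interior as a whole than at the edge. At the edge, where the levels were 100.4 and 63.2 CPM, it was 1.59-fold lower in rIL7 (1.36 to 1.86), and in the interior, with 59.3 and 24.3 CPM, it was 2.44-fold lower (2.19 to 2.71). Ms4a4b was 5.46-fold (4.25 to 7.08) higher in rIL7 at the edge and 2.44-fold (2.09 to 2.85) higher in the interior. Ms4a6b was 1.18-fold (1.02 to 1.36) higher in rIL7 at the edge but had a ratio of 0.811 (0.752 to 0.875) in the interior. Ms4a6c had ratios of 1.095 (0.963 to 1.25) and 0.741 (0.692 to 0.793). At least 2-fold differences at the edge were found for 6.55% (higher) and 2.66% (lower) of all genes, and for 1 and 0 of the members. In the interior the shares were 2.72% and 2.21%, with 1 member each.

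The share of Ms4a4c among member UMIs was also lower toward the core of both sections. In the control section it was 13.1% at step 1, 11.5% at steps 3 to 4 and 5.78% in the core. In the rIL7 section it was 6.49% at step 1, 8.79% at step 2 and 3.10% in the core. At each depth the share of Ms4a4c was lower in the rIL7 section. The share of Ms4a4b was 2.34% at step 1 and 1.88% in the core of the control section, and 11.5% and 4.38% in the rIL7 section, where it was thus the more concentrated toward the outline of these 2 members.

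**Figure D3:**
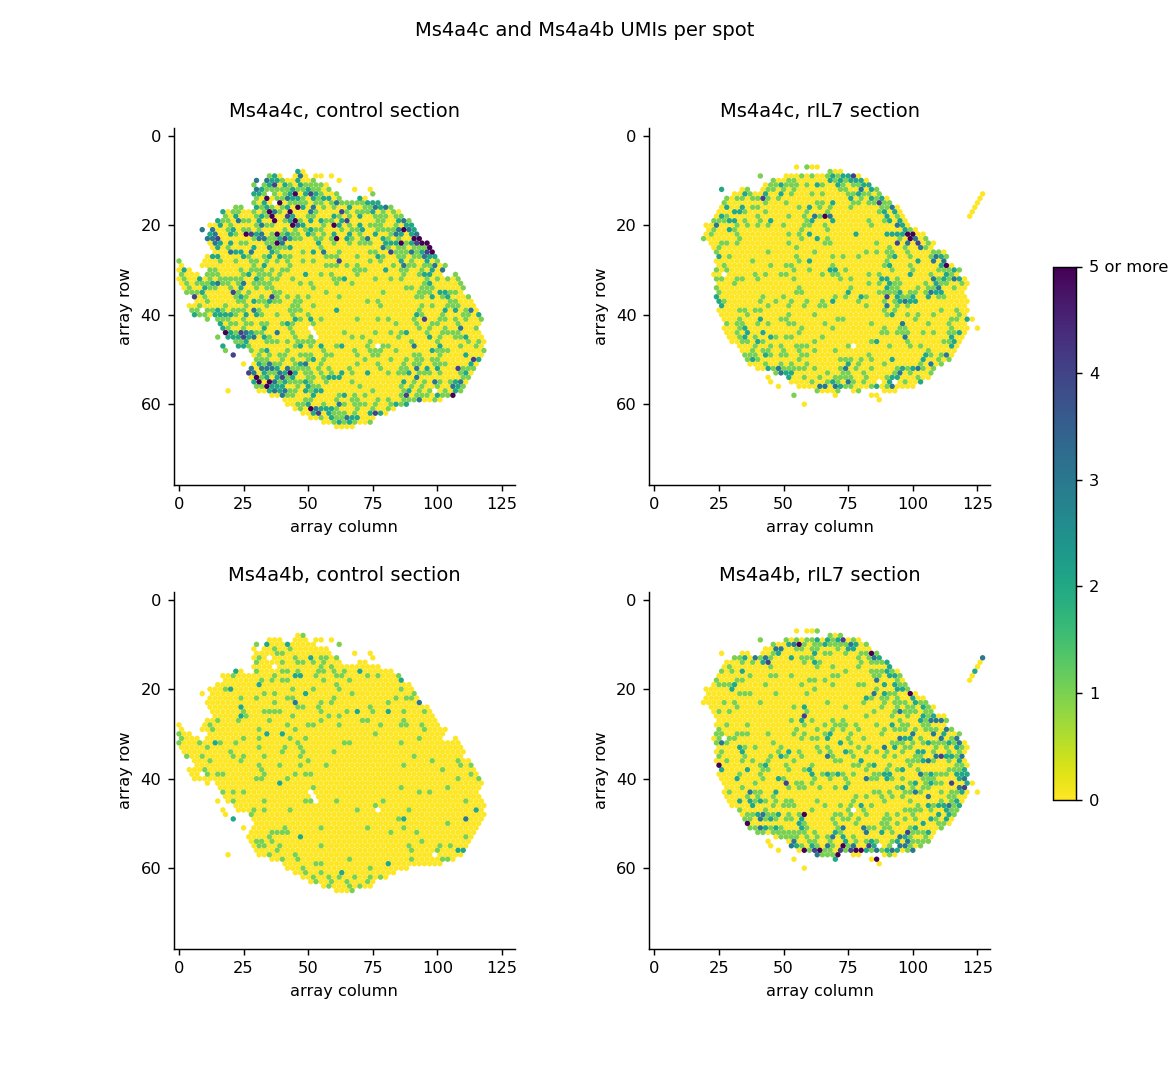
UMIs of Ms4a4c (top) and Ms4a4b (bottom) in each kept spot of the control (left) and the rIL7 section (right), drawn by array row and column, with the color scale closed at 5 or more UMIs. Ms4a4c UMIs lie along stretches of the outline in both sections and are sparse in the center, where their level is 28.1 CPM (control) and 14.4 CPM (rIL7) over 12 steps from the outline. Ms4a4b is scattered in the control section and dense along the outline of the rIL7 section.

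To see which transcripts shared the pattern of each member, each section was divided into tiles of 4 array rows by 8 array columns with at least 8 spots, 141 in the control against 119 in the rIL7 section, and levels were compared as log2(CPM + 10). Neighboring tiles are not independent and share the library, their cell density and their distance from the outline, so the correlations below describe these 2 sections and carry no p-value. Across single thinned spots, Spearman's rho between pairs of members lay between -0.013 and 0.119, and rho between Ms4a4c and the type I interferon list described below was 0.269 for control and 0.265 for rIL7.

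Across tiles, Ms4a4c followed the type I interferon response list most closely in both sections, with r = 0.77 in each. The list holds 22 measured genes induced by interferon, among them Bst2 (tetherin, which holds virions at the cell surface), the transcription factor Irf7 and the ubiquitin-like protein gene Isg15. Its correlation with the monocyte list was 0.61 in the control against 0.73 in the rIL7 section, with the macrophage list 0.51 and 0.61, and with the T cell list 0.47 and 0.63. With the patrolling monocyte list it was -0.14 and 0.43, a difference in sign between the sections. Single genes of the interferon list had a median r with Ms4a4c of 0.59 in the control against 0.51 in the rIL7 section, over the 21 with at least 200 UMIs in each section, beside medians of -0.01 and -0.03 over all 9604 genes compared. Single genes of the monocyte list (3 genes) had a median r of 0.52 and 0.64, and those of the macrophage list (12 genes) 0.32 and 0.54, so in the rIL7 section single genes of the interferon list did not have the highest median.

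The interferon list itself did not have the section difference of Ms4a4c. Its summed level was 1909 CPM in the control against 1868 CPM in the rIL7 section, with quadrants of 1539 to 3066 and 1825 to 1960 CPM. The median log2 ratio over its 22 genes was -0.06, with 8 genes above 0 and none past 2-fold. Bst2 (581 and 555 CPM) and Irf7 (196 and 167 CPM) were close between sections, Ifi27l2a was 1.32-fold higher in rIL7 (1.27 to 1.37) and Isg15 had a ratio of 0.694. The interferon gamma list, by contrast, had a median log2 ratio of 0.88, with 7 of 15 genes at least 2-fold higher in rIL7 (4.05% of all genes), such as the T cell chemoattractant gene Cxcl9 (56.6 and 170 CPM).

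The monocyte list had a median log2 ratio of 0.37 over 9 genes, and its summed level was 196 CPM in the control against 224 CPM in the rIL7 section, with overlapping quadrants of 176 to 257 and 196 to 244 CPM. Of the 9 genes, 6 were higher in rIL7, 2 of them at least 2-fold (4.05% of all genes were). Among the 4 with the most UMIs, F13a1, a coagulation factor subunit, was at 7.62 and 24.6 CPM and Plac8 at 45.3 and 55.3 CPM, while Ccr2, the chemokine receptor of inflammatory monocytes, was at 81.1 and 62.7 CPM and Ly6c2, a surface marker of the same cells, at 27.8 and 25.9 CPM. The macrophage list had a median log2 ratio of 0.14 over 13 genes and levels of 4993 and 6122 CPM. Of the 22 interferon, 9 monocyte and 13 macrophage genes, none was 2-fold lower in rIL7 as Ms4a4c was, where 2.09% of all genes were.

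In the rIL7 section Ms4a4b had its highest r with the T cell list (0.82). In the control section, where it had few UMIs, its r with that list was 0.39, below those with the NK cell (0.54), monocyte (0.47), macrophage (0.43) and type I interferon lists (0.43). One gene, the T cell receptor constant region Trbc2, gave 2193 of the 5043 control UMIs of that list, and without it r was 0.52 for control and 0.84 for rIL7. In the rIL7 section Ms4a4b also followed the macrophage list (r = 0.79) and the NK cell list (r = 0.75), so tiles of this size did not set these lists apart. Of the lists plotted, the macrophage list was the closest for Ms4a7 (r = 0.66 and 0.76) and Ms4a6d (r = 0.60 and 0.63). Ms4a6c had r = 0.49 in the control against 0.82 in the rIL7 section with the same list, and Ms4a6b had 0.51 and 0.63. For Ms4a6c the macrophage list was not the closest in the control section. Its r there was higher with the NK cell (0.59), T cell (0.51) and type I interferon lists (0.505). All 6 members had negative r with the CT26 tumor genes in both sections, from -0.17 for Ms4a7 in the control to -0.64 for Ms4a4b in the rIL7 section.

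**Figure D4:**
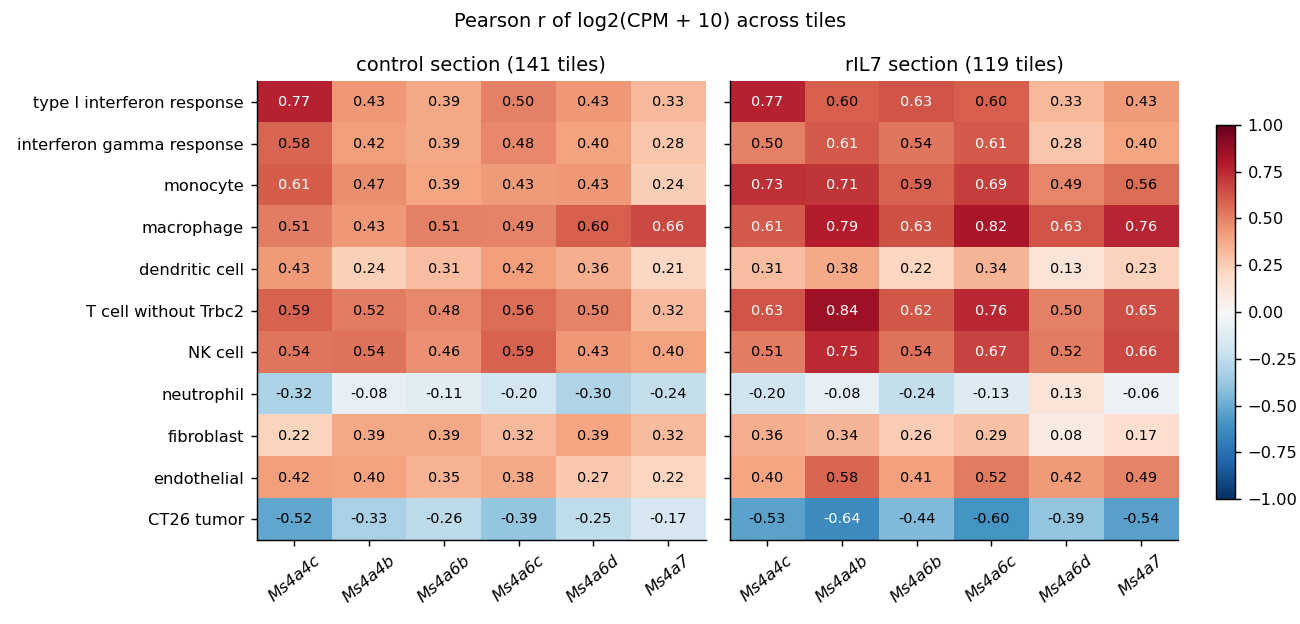
Pearson r of log2(CPM + 10) between 6 Ms4a members (columns) and the summed level of 11 gene lists (rows) across 141 control tiles (left) and 119 rIL7 tiles (right), on a color scale from -1 to 1. Within the Ms4a4c column the type I interferon list is highest in both sections (0.77), within the Ms4a7 column the macrophage list is (0.66 and 0.76), and the tumor row is negative for each of the 6 members.

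The genes most like a member were those with the highest r in both sections at once, ranked by the lower of the 2 values over 9605 genes. For Ms4a4c these were Cfb (complement factor B, 0.739), Irf7 (0.736), Ifi27l2a (0.701), Ifi44 (0.699), Ly6e (0.696), Ifi44l (0.682), Bst2 (0.678), Fcer1g (0.653), Lgals3bp (0.650) and Fcgr1 (0.645). Ifi27l2a, Ifi44, Ifi44l and Bst2 are, like Irf7, known as interferon-induced genes, and Fcer1g and Fcgr1 encode chains of Fc receptors of myeloid cells. The section ratios of these 10 genes ran from 0.747 for Fcgr1 to 1.32 for Ifi27l2a, and that of Ms4a4c was 0.448. Of the 7613 genes that averaged at least 20 CPM, only 2 had a lower ratio than Ms4a4c. That none of the 10 was as low is therefore not particular to them.

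The relatives had other partners. Ms4a7 was most like C1qc (0.672), Pltp, C1qa, C1qb and Tmsb4x, of which the C1q genes encode the macrophage-derived start of the complement cascade. Ms4a6d was most like Tyrobp (0.591), an adaptor of myeloid receptors, and Ctss, Sirpa, Pltp and C1qc. Ms4a6c was most like H2-Aa (0.599), Cd74, H2-K1, H2-Ab1 and Cd52, which include genes of MHC class II presentation. Ms4a6b was most like Cybb (0.571), a subunit of the phagocyte oxidase, and H2-K1, Ctss, Tyrobp and Clec4a3. Among the genes most like Ms4a4b were Fcgr4 (0.531), an Fc receptor gene, and H2-Ab1, Ctss and Ly6c2 (0.513), and for each of these 4 genes the control section gave the lower r.

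Among themselves, the 15 pairs of the 6 members had r from 0.31 to 0.53 in the control (median 0.45) and from 0.38 to 0.76 in the rIL7 section (median 0.60). The highest pair in the control was Ms4a4c with Ms4a6c (0.53), and in the rIL7 section Ms4a4b with Ms4a6c (0.76). The r of 0.77 between Ms4a4c and the interferon list is not a like measure. It rests on a sum of 22 genes, which carries less counting error than a single gene. Single genes of that list had a median r with Ms4a4c of 0.59 in the control section, from 0.36 to 0.75. In the rIL7 section their median was 0.51. Neighbors in the genome ranged widely: Ms4a4b and Ms4a6c, which lie side by side, had r = 0.42 in the control and the 0.76 above in the rIL7 section, Ms4a6c and Ms4a6b had r = 0.46 and 0.68, Ms4a4c and Ms4a4b had r = 0.42 and 0.61, and Ms4a7 and the adjacent Ms4a14 had r = 0.12 and 0.26. Ms4a14, and Ms4a4b in the control section, had few UMIs per tile, so counting error can lower their r. Tiles were also deeper in the rIL7 section, with a median of 199354 against 146807 UMIs. The part of counting error in these differences of r was not tested.

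Finally, the section difference was read in spots with a like level of a list, by dividing the spots of both sections together into 3 bins of the list's CPM. In the low bin of the type I interferon list, Ms4a4c held 34.6 CPM in 802 control spots and 13.9 CPM in 588 rIL7 spots. In the middle bin it held 57.5 and 20.9 CPM, and in the high bin 118 and 57.2 CPM. Ms4a4c was thus higher with the list in each section and 2.06-fold to 2.76-fold lower in rIL7 in each bin. The difference was seen as well within bins of the monocyte list (ratios of 0.437, 0.389 and 0.447), the macrophage list (0.302, 0.344 and 0.50) and the T cell list (0.355, 0.306 and 0.407). Within a bin the list's level was not identical, for instance 3592 CPM for control and 3214 CPM for rIL7 spots of the high interferon bin. The monocyte and T cell lists gave only 4503 and 5043 UMIs over the 2219 control spots. Their bins thus sorted single spots by few UMIs and matched the cell content of spots only loosely. A section ratio that remains within such bins therefore cannot show whether the difference is independent of the list.

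Ms4a4b was higher in rIL7 in each bin of the same lists. Within bins of the T cell list its ratios were 1.87 (1.38 to 2.51), 1.68 (1.34 to 2.11) and 2.99 (2.36 to 3.84), and without Trbc2 in the list they were 1.92, 1.61 and 2.58. The lowest 2 of the 3 T cell bins thus gave smaller ratios than the section as a whole (3.01). Within each bin the T cell list was itself higher in rIL7: 110 against 85.7, 268 against 260 and 706 against 510 CPM. Without Trbc2, the low bin held 42.6 against 24.7 CPM. The other 4 members stayed between ratios of 0.572 and 0.986 in every bin of every list, so the order with Ms4a4c lowest and Ms4a4b highest held in each of the bins.

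**Figure D5:**
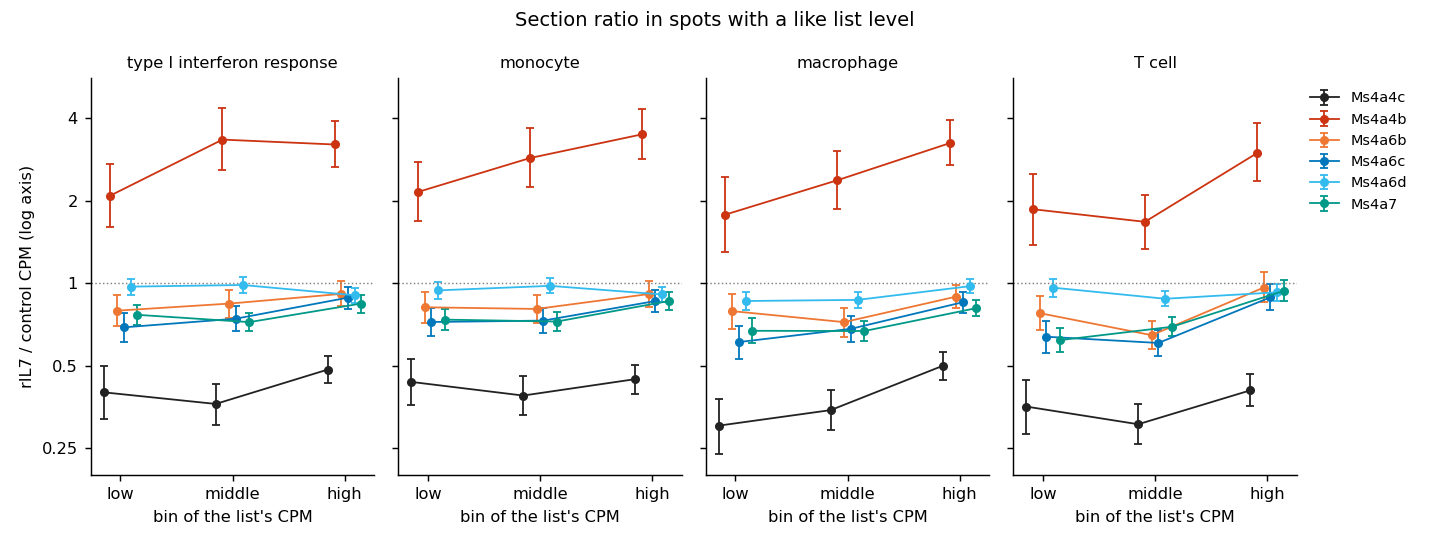
Ratio of rIL7 over control CPM (log axis, 1 as a dotted line) of 6 Ms4a members in spots of the low, middle and high bin of 4 gene lists, with 95% intervals (counting error only). Ms4a4c lies between 0.302 and 0.50 and Ms4a4b between 1.68 and 3.50, and the other 4 members lie between them in every bin.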

How the data were processed

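The authors counted UMIs per gene and spot, and the deposited matrices hold these raw counts for 1 control and 1 rIL7 section. The submitters' processing notes name Space Ranger 1.1.0 and mm10. The authors also deposited other items that were used unchanged: spot barcodes, gene identifiers and, per spot, a tissue flag and array position. The sections share 1702 barcodes because each array carries a fixed set, and they were kept apart by section.

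As in the study's methods, spots with under 10% mitochondrial UMIs and more than 200 genes were kept, which removed 2 control spots and 1 rIL7 spot. Sums were scaled to CPM. Intervals (95%) were exact Poisson for sums and Clopper-Pearson for shares and ratios. Gene coordinates came from RefSeq GRCm38, where 19 of 19 Ms4a symbols matched. Named were the 7 members, other Ms4a genes with at least 20 UMIs, up to 4 genes of the most UMIs per list, and the 10 (Ms4a4c) or 5 genes most like a member, of which 1 is not reported here. Members and lists were chosen with earlier results of these data known. Mx1, Mx2 and Clec7a are list genes not analysed here. The scripts were tested on simulated data. Python 3.11.15, R 4.3.3, edgeR 4.0.16 and DESeq2 1.42.0 were used, the last pair for scaling only.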

Additional observations from a re-analysis of the deposited data

How the results depend on the processing

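Under the alternatives, 189 recomputed values stayed within the interval or range of the value reported, 26 moved further and 2 changed direction. The log2 ratio of rIL7 over control turned to 0.23 for Ms4a6b and 0.13 for Ms4a6c when edge spots alone were used. For Ms4a4c it was -1.29 in the interior alone and -0.67 at the edge alone. With each spot weighted the same, the log2 ratio of edge over interior of Ms4a4c in the control section was 0.96, and its share of member UMIs was 9.42% in the control against 4.72% in the rIL7 section. With an edge of 1 step, the log2 ratio of edge over interior of Ms4a4c in the rIL7 section was 0.92. With tiles of 6 by 12, r was 0.83 for Ms4a4c and the interferon list in the control section and 0.90 for Ms4a4b and the T cell list in the rIL7 section, and with a pseudocount of 1 CPM these were 0.68 and 0.72. At a mean of at least 20 CPM, 0.828% of 7613 genes were 2-fold higher and 0.197% lower. Keeping all spots, requiring over 1000 genes per spot, other scalings (which shifted all ratios by 0.0053 for TMM and 0.0020 for median-of-ratios scaling, in log2) and leaving mitochondrial, ribosomal protein and haemoglobin genes out of the totals kept every value within it. Leaving out skin and muscle spots and Trbc2 was chosen after seeing the data. The causes were not tested. No paired analysis was possible because each group holds 1 section, and leaving out a replicate was not possible for the same reason.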
